A study of Mus musculus with 6 samples.

Results

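The genes described here are those of collagens and the extracellular matrix of the heart, measured in the left ventricle of MURC knockout and wild-type mice. The list holds 50 genes, and a member was taken where a probe set of the array has that gene as its only symbol in the platform annotation. Of the 50 genes, 48 were found, among 19938 genes with such probe sets, and each had 1 probe set, so no choice between probe sets arose. The other 2, Fbn1 and Loxl2, were not analysed here. The members were grouped as 10 interstitial collagens, 12 basement membrane genes, 15 glycoproteins and proteoglycans, and 11 genes of crosslinking, turnover and cell receptors. All 48 passed the filter on low signal.

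The study hybridised total RNA from the left ventricles of male C57BL/6 mice to 6 Affymetrix arrays, 3 from MURC knockout (KO) mice and 3 from wild-type (WT) mice. MURC, encoded by Cavin4, belongs to the coat proteins of caveolae, small pits of the cell membrane, in muscle. The KO samples were 11, 11 and 13 weeks old and the WT samples 13, 13 and 12 weeks old. The labels give no design of the knockout allele and do not state whether every sample came from its own animal, so the p-values rest on the spread among samples, part of which may be technical.

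The extracellular matrix of the heart is a network of fibrillar collagens, mostly types I and III, laid down by fibroblasts, that carries force between muscle cells. A thin basement membrane of collagen IV, laminins, nidogens and perlecan surrounds each muscle cell and each capillary. Glycoproteins and small leucine-rich proteoglycans organise the fibrils, lysyl oxidases crosslink them, matrix metalloproteinases cut them and the TIMP proteins inhibit those proteases. In hearts under pressure load or after injury, fibrillar collagens, periostin, tenascin C, fibronectin and Timp1 are known to increase.

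Cavin4, the targeted gene, measured 5.38, 5.74 and 5.59 on the KO arrays and 8.75, 8.62 and 8.07 on the WT arrays, in log2 signal, so each array followed its label (limma adjusted p = 0.012). Without KO replicate 1, KO replicate 3 or WT replicate 1 that adjusted p was 0.0646, 0.118 and 0.0777. Array medians lay between 4.60 and 4.65 in KO and between 4.61 and 4.71 in WT. KO replicate 2 stood apart in genes of the atrium: the atrial myosin light chain Myl7 measured 7.22 there, against 3.87 and 4.11 on the other KO arrays and 3.61 to 4.06 in WT, and Myl4 measured 8.67 against 5.53 and 5.61 in KO and 5.41 to 5.55 in WT. Without this array, the members lower at an unadjusted p under 0.05 numbered 1 in place of 3, and those higher 2 in both cases. The lower count was also 1 without KO replicate 3 and without WT replicate 1, which lacked that atrial signal. The ventricular light chain Myl2 lay above the 99.8th percentile of all probe sets on every array. Values of different probe sets are not comparable as levels, so only differences between genotypes within a gene are compared.

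No matrix gene passed the threshold of an adjusted p of 0.05 in limma, where p-values were adjusted over all 24898 probe sets tested and 1 of these, or 0.00402%, passed. At an unadjusted p under 0.05, 5 of the 48 members stood out, which is 10.4% of them against 13.7% of all probe sets tested. These were Timp4 and Timp3, both higher in KO, and Ogn, Sparc and Col6a2, all lower in KO. Higher calls at that level made up 4.71% of all probe sets and lower calls 9.02%. The member with the largest difference was Timp4, at 0.58 higher on the log2 scale or 1.49-fold. The next in size was Ogn at -0.29, and 31 of the 48 members differed by less than 0.1. In bulk tissue, fewer cells of a type and less RNA per cell cannot be told apart.

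As a group the matrix genes lay close to no difference. Of the 48, 20 were higher in KO, 27 lower and 1 at 0, with a median log2 difference of -0.017, and 50% of them lay between -0.11 and 0.034. Over all probe sets tested, 59.0% were below 0 and 40.1% above, with a median of -0.037. Among probe sets with 1 symbol, as the members are, 62.1% were below 0 and 11.9% had an unadjusted p under 0.05. After quantile normalization of the arrays 23 members were lower and 25 higher, with a median of 0.019, and no member passed where 0.522% of all probe sets did. After median centring the split was the same with a median of 0.0033. The genotypes did not overlap for 6 members, or 12.5%, against 19.0% of all probe sets tested. The share of members at an unadjusted p under 0.05 and the share without overlap rest on 5 and 6 members. Both were below those of the whole table, by a gap of few genes that was not tested.

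**Figure D1:**
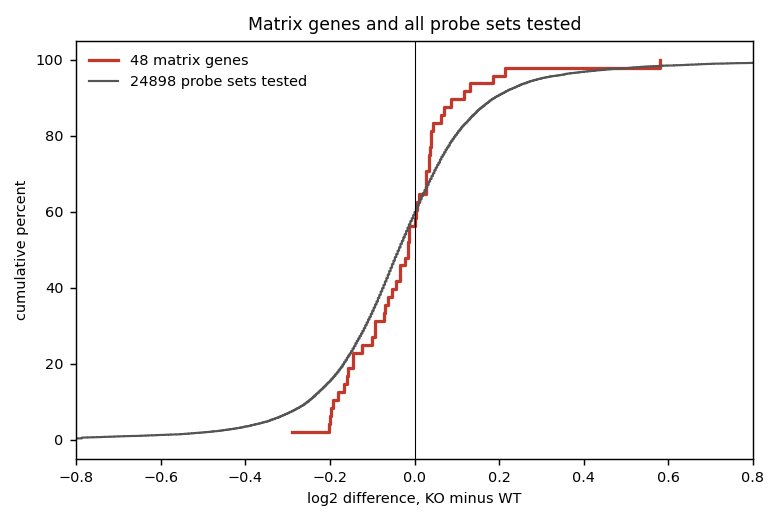
Cumulative percent of the 48 matrix genes (red) and of the 24898 probe sets tested (grey) against the log2 difference, KO minus WT. The curves cross near 0, and the red one spans a narrower range, from Ogn at -0.29 to Timp4 at 0.58.

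The precision of these arrays limits which differences in measured signal could be seen. The intervals rest on the spread among samples, and background can compress differences of dim probe sets such as Tnc and Timp1. The 95% interval of a member's difference had a median half-width of 0.20 on the log2 scale. For 47 of the 48 members that interval, unadjusted for the number of genes, lay inside a 1.5-fold change in either direction, and for 35 it lay inside a 1.3-fold change. The exception to the first was Timp4. The widest interval was that of Postn, at -0.49 to 0.51, and that of Timp2 ran from -0.13 to 0.13.

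**Figure D2:**
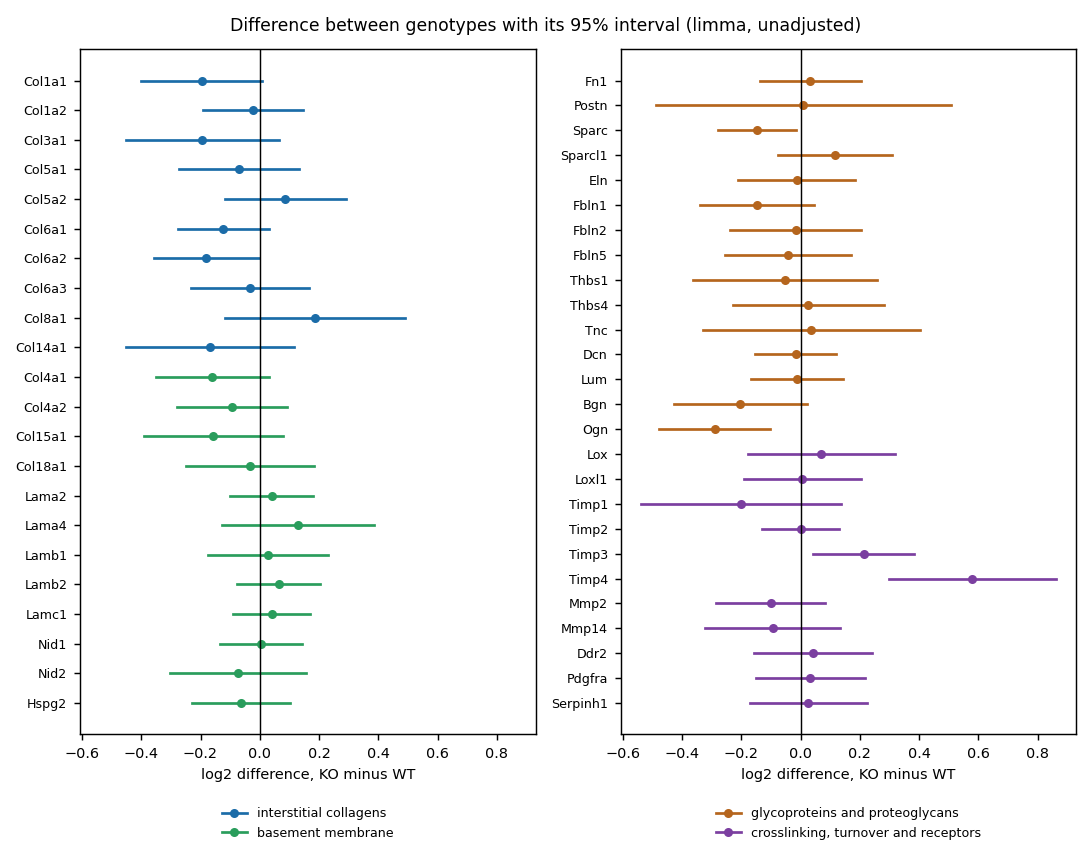
Log2 difference, KO minus WT, of each of the 48 matrix genes (points) with its unadjusted 95% limma interval (lines), coloured by member group. The intervals of Timp4, Timp3, Ogn, Sparc and Col6a2 leave out 0.

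The interstitial collagens form the bulk of scar matrix. Of the 10 genes, 8 were lower in KO and 2 higher, where 62.1% of probe sets with 1 symbol were below 0, and the median log2 difference was -0.097. An unadjusted p under 0.05 was found for 1 of the 10, against 13.7% of all probe sets tested. On KO replicate 1 the group was level with WT, with 5 of the 10 genes below the WT mean. Within them, 4 of the 5 fibrillar collagen genes were lower, with a median of -0.07. No member of this group was higher in KO with an unadjusted p under 0.05. The median of the 10 lay between -0.11 and -0.058 under every alternative run.

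Col1a1 encodes the alpha-1 chain of collagen I, the main tensile collagen of the heart. It measured 7.29, 7.18 and 7.03 on the KO arrays and 7.43, 7.27 and 7.39 on the WT arrays, a log2 difference of -0.20 (SE 0.088, limma adjusted p = 0.385). KO replicate 3 was the lowest array, and KO replicate 1 at 7.29 lay above WT replicate 2, so the genotypes overlapped. Without KO replicate 3 the difference was -0.13. Its partner chain Col1a2 measured 7.76, 7.67 and 7.55 in KO and 7.71, 7.68 and 7.66 in WT, with KO arrays on both sides of all WT arrays. Its difference of -0.023 was 0.025 after quantile normalization, and the difference between the 2 chains was not tested.

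Col3a1 encodes collagen III, which forms thin fibrils with collagen I. It measured 7.69, 7.55 and 7.32 in KO and 7.76, 7.81 and 7.57 in WT, a log2 difference of -0.19 (SE 0.11, limma adjusted p = 0.507). KO replicate 3 was again the lowest array, and without it the difference was -0.093, less than the 0.19 in size over all arrays. Collagen V, which starts fibril assembly, was split: Col5a1 differed by -0.07 and Col5a2 by 0.087, with overlap in both.

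Collagen VI forms beaded filaments beside basement membranes, from chains encoded by Col6a1, Col6a2 and Col6a3. Col6a2 measured 6.88, 6.74 and 6.88 in KO and 7.06, 6.93 and 7.05 in WT, a log2 difference of -0.18 (SE 0.076), with a limma p of 0.0484 and an adjusted p of 0.361. Every KO array lay below every WT array, by 0.05 at the nearest pair. Col6a1 measured 7.22, 7.20 and 7.22 in KO and 7.36, 7.39 and 7.26 in WT, also without overlap, a difference of -0.12 (SE 0.065, adjusted p = 0.469). Col6a3 measured -0.033 with overlap. KO arrays lay below WT without overlap at 12.9% of all probe sets tested. Without KO replicate 2, the array with atrial signal, Col6a2 differed by -0.13, and its unadjusted p was under 0.05 in 6 of the 16 alternatives run.

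The remaining 2 collagens of this group were Col8a1, a short-chain collagen of vessel walls and fibroblasts, and Col14a1, a fibril-associated collagen. Col8a1 measured 7.05, 6.88 and 6.65 in KO and 6.82, 6.47 and 6.73 in WT, a difference of 0.19 that ran from 0.085 to 0.29 with an array left out. Col14a1 measured 6.31, 6.05 and 6.01 in KO and 6.21, 6.17 and 6.49 in WT, a difference of -0.17 that ran from -0.26 to -0.067. The genotypes overlapped in both.

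**Figure D3:**
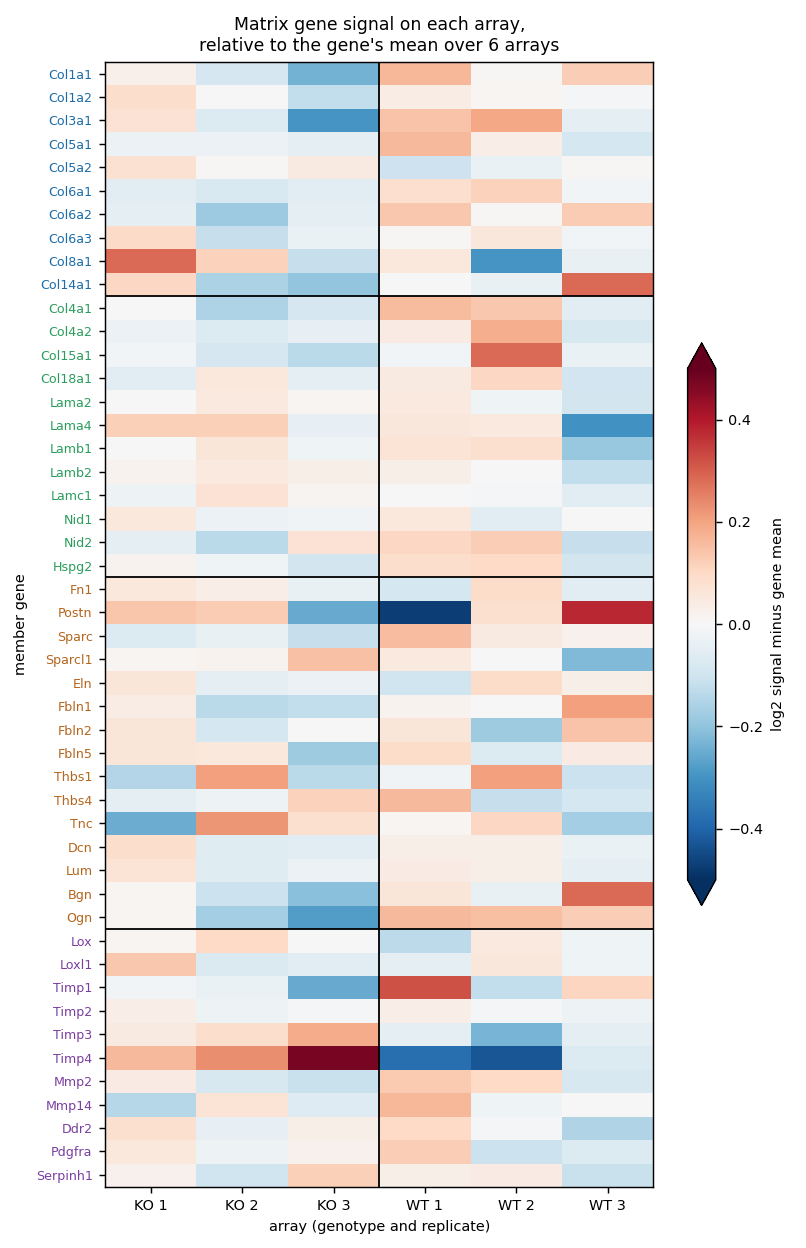
Log2 signal of each matrix gene on each array minus the gene's mean over the 6 arrays, from blue (lower) to red (higher), with KO arrays on the left and lines between the 4 member groups. Timp4 is higher on all KO arrays than on all WT arrays and Ogn lower, while laminin genes are lowest on WT replicate 3.

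Basement membrane genes were split evenly, with 6 of 12 higher and 6 lower in KO, a median of -0.015 and none with an unadjusted p under 0.05. Among probe sets with 1 symbol, 62.1% were below 0, and 13.7% of all probe sets tested had an unadjusted p under 0.05. The collagen chains of this group, Col4a1, Col4a2, Col15a1 and Col18a1, measured -0.16, -0.093, -0.16 and -0.033, while the 5 laminin chains were all higher, between 0.027 and 0.13. Laminin chains outside the member list were mostly lower, with Lamc3 at -0.29, Lamb3 at -0.14, Lama3 at -0.14 and Lama5 at -0.13, while Lama1 measured 0.04. None of the 12 members separated the genotypes, where 19.0% of all probe sets tested did. Each of these laminin chains overlapped between genotypes.

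Col4a1 and Col4a2 encode the chains of the common collagen IV network. Col4a1 measured 7.40, 7.25 and 7.32 in KO and 7.56, 7.54 and 7.35 in WT (SE of the difference 0.082, limma adjusted p = 0.453). WT replicate 3 lay among the KO arrays, and without it the difference was -0.23. Col15a1, a collagen of the zone beneath basement membranes, measured 6.93, 6.86 and 6.81 in KO and 6.93, 7.23 and 6.91 in WT. Its difference of -0.16 rested on WT replicate 2, and without that array it was -0.053.

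Lama4, the laminin chain of capillary walls, measured 8.10, 8.10 and 7.94 in KO and 8.04, 8.03 and 7.68 in WT, a difference of 0.13 (SE 0.11, limma adjusted p = 0.669). WT replicate 3 set this difference, which was 0.012 without that array. Lama2, the muscle laminin chain, differed by 0.04, Lamb1 by 0.027 and Lamc1 by 0.04. Lamb2 measured 9.15, 9.18 and 9.16 in KO and 9.16, 9.13 and 9.01 in WT, a difference of 0.063 that was 0.018 without WT replicate 3. On WT replicate 3 all 5 laminin chains lay below their WT mean, as did 11 of the 12 basement membrane genes, and without that array Lamb1 measured -0.062. The nidogens, which link laminin to collagen IV, measured 0.0033 for Nid1 and -0.073 for Nid2. Hspg2, which encodes the heparan sulfate proteoglycan perlecan, measured 9.44, 9.40 and 9.33 in KO and 9.51, 9.52 and 9.33 in WT, a difference of -0.063 with overlap that was -0.125 without WT replicate 3 and -0.03 without WT replicate 2.

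Among the 15 glycoproteins and proteoglycans, 10 were lower and 5 higher in KO, with a median of -0.017 that was 0.019 after quantile normalization and -0.052 without KO replicate 2 or without KO replicate 1. Among probe sets with 1 symbol, 62.1% were below 0. Of the 15, 2 had an unadjusted p under 0.05, or 13.3%, against 13.7% of all probe sets tested. Both were lower in KO, where 9.02% of all probe sets tested were lower at that level. Neither overlapped between genotypes, and KO arrays lay below WT without overlap at 12.9% of all probe sets tested. Of the genes known to increase in injured or loaded hearts, none was higher in KO with an unadjusted p under 0.05. Postn, which encodes periostin of activated fibroblasts, measured 7.37, 7.36 and 6.98 in KO and 6.76, 7.31 and 7.61 in WT, a difference of 0.01 with the widest replicate spread of all members, 0.43 (SD, n = 3) in WT. With an array left out its difference ran from -0.22 to 0.20. Tnc, the tenascin C gene, differed by 0.037 and Fn1, the fibronectin gene, by 0.033. Timp1 of the next group measured -0.20, and Col1a1 and Col3a1 were lower by similar amounts, as given above, all with overlap. Tnc and Timp1 were dim, with mean log2 signals of 3.67 and 4.18, below every array median. The filter lay at 3.45, and background can compress differences of such dim probe sets.

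Ogn encodes osteoglycin, a small leucine-rich proteoglycan that binds collagen fibrils. It measured 8.99, 8.81 and 8.70 in KO and 9.14, 9.13 and 9.10 in WT, a log2 difference of -0.29 (SE 0.08) or 1.22-fold lower in KO, with a limma p of 0.00765 and an adjusted p of 0.192. All KO arrays lay below all WT arrays, and the WT arrays lay within 0.04 of each other, with a spread of 0.021 against 0.15 in KO (SD, n = 3 each). Its unadjusted p stayed under 0.05 in all 16 alternatives run, where the difference ranged from -0.37 to -0.22 and the adjusted p from 0.0928 to 0.44.

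Ogn belongs to a family with Dcn, Lum and Bgn, whose proteins also coat collagen fibrils. Bgn, the biglycan gene, measured 9.87, 9.75 and 9.65 in KO and 9.92, 9.82 and 10.14 in WT, a difference of -0.20 (SE 0.096, limma adjusted p = 0.411). KO replicate 1 lay above WT replicate 2, and the difference was -0.11 without WT replicate 3 and -0.32 with age as a covariate. Dcn, the decorin gene, measured 11.26, 11.11 and 11.12 in KO and 11.20, 11.20 and 11.14 in WT, a difference of -0.017 whose sign turned after median centring, at 0.0033. Lum, the lumican gene, measured -0.013. These 4 genes ran from -0.29 to -0.013 on the log2 scale, while other genes of the family outside the member list had both signs, with Aspn (asporin) at 0.10, Fmod (fibromodulin) at 0.083 and Prelp at -0.063.

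Sparc encodes a secreted collagen-binding protein needed for normal collagen deposition. It measured 10.54, 10.57 and 10.49 in KO and 10.76, 10.65 and 10.63 in WT, a difference of -0.15 (SE 0.057), with a limma p of 0.0348, an adjusted p of 0.324 and no overlap. After quantile normalization the difference was -0.087, and its unadjusted p stayed under 0.05 in 8 of the 16 alternatives, and with an array left out only where that was WT replicate 3. Sparcl1, its relative, had the other sign: it measured 10.74, 10.75 and 10.88 in KO and 10.78, 10.73 and 10.51 in WT, a difference of 0.12 that was 0.035 without WT replicate 3 and 0.22 with age as a covariate.

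The elastic fibre genes of this group all had an unadjusted p above 0.05. Eln, the elastin gene, measured -0.013 and the fibulin genes Fbln1, Fbln2 and Fbln5 measured -0.15, -0.017 and -0.043, all with overlap. Fbln1 had the smallest p of these, 0.115. The thrombospondin genes Thbs1 and Thbs4, whose products bind matrix and cells, measured -0.053 and 0.027.

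The group of crosslinking, turnover and receptors held the largest difference of the matrix genes, in the TIMP family. Of its 11 genes, 7 were higher in KO, 3 lower and 1 at 0, with a median of 0.027 that was -0.013 without WT replicate 3. Among probe sets with 1 symbol, 62.1% were below 0. Timp4 and Timp3 had an unadjusted p under 0.05, both higher in KO and without overlap. Higher calls at that level made up 4.71% of all probe sets tested. KO arrays lay above WT arrays without overlap at 6.12% of all probe sets tested. The 4 TIMP genes differed in direction among themselves, with Timp4 at 0.58, Timp3 at 0.21, Timp2 at 0.00 and Timp1 at -0.20.

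Timp4 encodes the TIMP known for its high expression in heart. It measured 8.21, 8.28 and 8.52 on the KO arrays and 7.67, 7.62 and 7.98 on the WT arrays, with means of 8.34 ± 0.16 in KO and 7.76 ± 0.20 in WT (SD, n = 3 each). Every KO array lay above every WT array, by 0.23 at the nearest pair. The log2 difference was 0.58 (SE 0.12, 95% interval 0.30 to 0.86), or 1.49-fold, with a limma p of 0.00161 and an adjusted p of 0.112. When only probe sets listed in the platform annotation were tested, the adjusted p was 0.0231, in a setting where 2.01% of probe sets passed, and the 16 alternatives gave adjusted p-values of 0.0231 to 0.271. The difference ranged from 0.49 without KO replicate 3 to 0.69 without WT replicate 3. It was 0.61 without KO replicate 2, the array with atrial signal, and 0.62 with age as a covariate.

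Age and genotype were not balanced, so the arrays of 1 age were also set side by side. Among 13-week samples Timp4 measured 8.52 in KO replicate 3 and 7.67 and 7.62 in WT replicates 1 and 2. In the same samples Timp3 measured 10.08 in KO and 9.85 and 9.66 in WT, and Ogn 8.70 in KO and 9.14 and 9.13 in WT. With 1 KO sample of that age there is no test. The genotypes of these genes did not overlap over all 6 arrays, so the directions could not differ here. This comparison therefore does not test age.

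Timp3 encodes a TIMP that stays bound to the matrix. It measured 9.94, 9.98 and 10.08 in KO and 9.85, 9.66 and 9.85 in WT, a log2 difference of 0.21 (SE 0.073), with a limma p of 0.0206 and an adjusted p of 0.27. The genotypes did not overlap, with 0.09 between the nearest arrays. Without KO replicate 3 or WT replicate 2 the differences were 0.17 and 0.15, and the unadjusted p values 0.0658 and 0.0722. Timp2, a broadly expressed inhibitor that also takes part in the activation of Mmp2, measured 8.29, 8.23 and 8.25 in KO and 8.29, 8.25 and 8.23 in WT, the same mean in both. Timp1, the inducible inhibitor, measured 4.17, 4.15 and 3.93 in KO and 4.50, 4.06 and 4.29 in WT, with WT replicate 2 among the KO arrays. Its difference was -0.092 without WT replicate 1 and -0.31 without WT replicate 2.

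**Figure D4:**
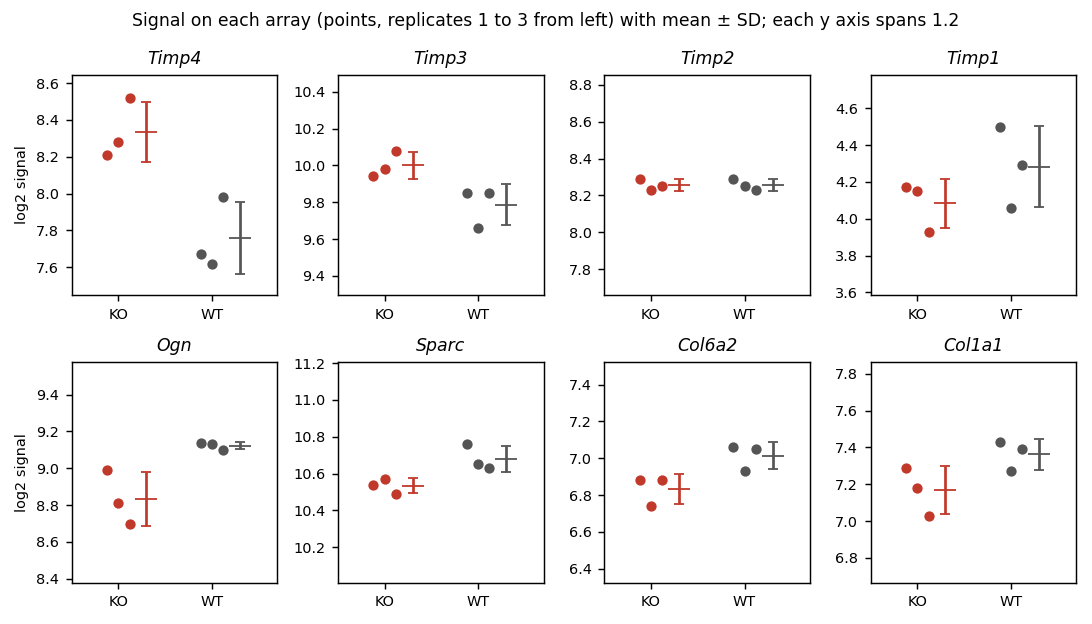
Log2 signal on each array for the 4 TIMP genes and for Ogn, Sparc, Col6a2 and Col1a1, with KO (red) left of WT (grey); points are replicates 1 to 3 from left, bars are mean ± SD, and each y axis spans 1.2 log2 units. Timp4 lies between 8.21 and 8.52 in KO and between 7.62 and 7.98 in WT, and Timp2 lies at the same level in both.

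Sequences upstream of the start were compared for the pair of TIMP genes that measured higher and for the 2 genes with the smallest p among those that measured lower, to show whether they share core promoter letters. Each is the 250 bases before the gene's start in RefSeq's GRCm38.p6 annotation, 5′ to 3′ on the gene's strand, with capitals marking any of 4 motifs on either strand. The TATA box was searched for as TATAAA and the CCAAT box by the letters of its name. For the GC box of the Sp family the letters were GGGCGG, and for the site of the AP-1 family they were TGANTCA. The windows lie at chr6:115252206-115252455 on the minus strand for Timp4, chr10:86300162-86300411 on the plus strand for Timp3, chr13:49607765-49608014 on the plus strand for Ogn and chr11:55420081-55420330 on the minus strand for Sparc.
Timp4: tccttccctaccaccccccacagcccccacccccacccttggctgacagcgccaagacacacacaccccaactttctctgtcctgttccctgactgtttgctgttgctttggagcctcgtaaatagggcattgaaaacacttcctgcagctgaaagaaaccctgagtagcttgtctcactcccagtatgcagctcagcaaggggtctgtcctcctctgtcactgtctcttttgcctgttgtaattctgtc
Timp3: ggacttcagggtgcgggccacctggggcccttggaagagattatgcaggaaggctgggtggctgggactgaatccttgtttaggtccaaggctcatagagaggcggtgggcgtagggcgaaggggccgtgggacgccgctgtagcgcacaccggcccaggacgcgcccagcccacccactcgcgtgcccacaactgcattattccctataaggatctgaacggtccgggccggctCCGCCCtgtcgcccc
Ogn: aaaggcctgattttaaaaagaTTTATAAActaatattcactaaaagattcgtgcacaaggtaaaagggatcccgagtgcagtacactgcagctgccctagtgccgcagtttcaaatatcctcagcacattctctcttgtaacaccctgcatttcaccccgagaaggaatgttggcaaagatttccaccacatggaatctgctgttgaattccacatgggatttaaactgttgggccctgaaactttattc
Sparc: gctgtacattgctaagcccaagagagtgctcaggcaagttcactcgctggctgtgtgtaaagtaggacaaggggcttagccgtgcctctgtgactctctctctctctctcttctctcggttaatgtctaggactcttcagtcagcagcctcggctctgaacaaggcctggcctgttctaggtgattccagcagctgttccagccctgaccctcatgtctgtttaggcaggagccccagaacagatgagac
Timp3 held a GC box on the reverse strand, and the windows of Timp4 and Sparc held none of the 4 motifs. Ogn held the TATA box letters, read on both strands with overlap. They lay near the 5′ end of its window, far from the gene's start. Over the 32851 promoters of the table, 12.4% of such windows held the TATA box, 33.8% the CCAAT box, 32.7% the GC box and 6.75% the AP-1 site. CpG dinucleotides numbered 18 in Timp3 and 2 in Timp4, with a median of 6 over all promoters, against a median of 8 over the member promoters. Promoters were found for 33 of the 48 members, with 39 starts among them, and of these 39 windows 56.4% held a GC box, 25.6% a CCAAT box, 15.4% a TATA box and 2.56% an AP-1 site. A match of letters is a description, not a site.

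The proteases and crosslinking enzymes showed smaller differences than Timp4. Mmp2, the gelatinase made by fibroblasts, measured 8.41, 8.29 and 8.26 in KO and 8.50, 8.47 and 8.29 in WT, a difference of -0.10 (SE 0.079, limma adjusted p = 0.646) with overlap. It was -0.165 without WT replicate 3 and -0.06 without WT replicate 1. Mmp14, its membrane-bound activator, measured -0.093. Lox and Loxl1, lysyl oxidases that crosslink collagen and elastin, measured 0.07 and 0.0067, and Serpinh1, the collagen chaperone HSP47 of the endoplasmic reticulum, 0.027. The receptors Ddr2, which binds fibrillar collagen, and Pdgfra, a growth factor receptor that marks fibroblasts, measured 0.043 and 0.033. The genotypes overlapped in each of these.

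**Figure D5:**
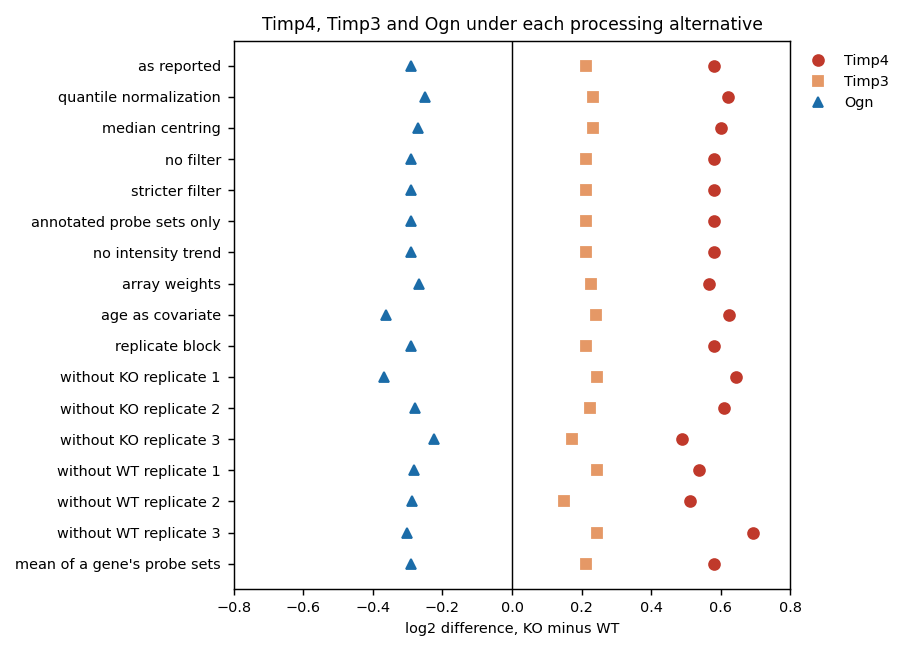
Log2 difference, KO minus WT, of Timp4 (circles), Timp3 (squares) and Ogn (triangles) as reported and under each of 16 processing alternatives. The 3 genes stay on their own side of 0 throughout, Timp4 from 0.49 to 0.69. Their genotypes did not overlap, so leaving an array out could not change the side.

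Array by array, the interstitial collagens differed among the KO samples. Set against the WT mean of each gene, their median lay at -0.0017 on KO replicate 1, -0.13 on KO replicate 2 and -0.125 on KO replicate 3, and between -0.0033 and 0.037 on the WT arrays. On KO replicates 2 and 3, 8 and 9 of the 10 genes lay below the WT mean, against 5 on KO replicate 1. For all 48 members those medians were 0.02, -0.04 and -0.05 in KO and 0.045, 0.017 and -0.045 in WT, so the genotypes overlapped. In all, 28 of the 48 members kept their sign with each array left out in turn and 42 kept it under both other scalings.

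Further matrix genes were split evenly, where 62.1% of probe sets with 1 symbol were below 0. A list of 81 other matrix genes had 75 measured and 72 tested, of which 36 were higher and 36 lower in KO, with a median of 0.00. At an unadjusted p under 0.05 there were 3 higher and 2 lower, or 6.94%, against 13.7% of all probe sets, and none passed the adjusted threshold in limma. Without KO replicate 2 the higher ones numbered 1, and without KO replicate 1 or WT replicate 2 there were 0. Loxl3, another lysyl oxidase, measured 5.06, 5.05 and 4.91 in KO and 5.33, 5.65 and 5.29 in WT, a difference of -0.42 (limma adjusted p = 0.206). Adamts9, a metalloprotease that cuts proteoglycans, measured -0.23, and its other 5 probe sets lay between -0.14 and -0.087 with an unadjusted p above 0.05. Agrn, the basement membrane proteoglycan agrin, measured 0.16 higher, Dpt (dermatopontin) 0.17, Tnxb (tenascin X) 0.16 and Efemp1 (fibulin-3) 0.24, each without overlap. Loxl3 and the Adamts9 probe set at -0.23 did not overlap either, with KO below WT. Of the 72, 5 lay below WT and 5 above without overlap. That is 13.9%, against 19.0% of all probe sets tested. Other collagens of this list were lower in 9 of 12, other laminins and basement membrane genes lower in 4 of 6 with a median of -0.13, and other glycoproteins and proteoglycans higher in 18 of 24, none of them past the adjusted threshold.

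Markers of cell types that hold or lack these genes were summed as linear signals within each list. Bright probe sets weigh most in such a sum, as Dcn (mean log2 signal 11.2) and Gsn (11.1) do among fibroblast markers. A sum thus stands mainly for its brightest genes and is compared only between genotypes. The 10 fibroblast markers, 5 of them members, summed to 5838 to 6417 in KO and 5644 to 6000 in WT, with 4 higher and 6 lower. Gsn (0.21) and Dpt (0.17) were higher in KO with an unadjusted p under 0.05, no marker of this list was lower at that level, and Scara5 (0.19) also did not overlap. The 5 markers of activated fibroblasts summed to 970 to 994 in KO and 904 to 1031 in WT. Smooth muscle and pericyte markers summed to 2033 to 2085 in KO and 1987 to 2052 in WT, with Myh11 (0.35) and Tagln (0.42) higher in KO without overlap and Kcnj8 at -0.27. Leukocyte markers were lower in 6 of 7 tested, where 62.1% of probe sets with 1 symbol were below 0. They summed to 714 to 818 in KO and 811 to 1078 in WT. C1qb measured -0.51 without overlap, and Cd79a lay below the filter. Endothelial markers overlapped in sum, 2629 to 2740 in KO and 2417 to 2929 in WT, with Cldn5 at -0.40 without overlap. Cardiomyocyte markers summed to 46796 to 47447 in KO and 47000 to 47508 in WT, with Actc1 at -0.11 without overlap. Over all probe sets tested, KO arrays lay below WT without overlap at 12.9% and above at 6.12%. Atrial markers summed to 1829 to 3346 in KO, with the highest sum on replicate 2, and 1692 to 2313 in WT. Epicardial markers overlapped as well, at 75.8 to 88.9 in KO and 80.9 to 88.2 in WT. The adipocyte, Schwann and erythroid lists had 1 gene tested each, too few to read. The part of these in the differences of Timp4, Ogn, Sparc and Col6a2 was not tested.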

How the data were processed

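Total RNA of 6 left ventricle samples was labelled with biotin and hybridised to Affymetrix arrays, per the labels' protocols. The authors deposited 1 table of log2 values, 35556 probe sets by 6 arrays, and the submitters' processing notes name MAS5, with no role or version. How background, summarization and scaling were handled is not stated by any label or header read here. That the unit is log2 was settled from the deposited values, which ran from 0.46 to 13.72, and they were used as they stand. The number of arrays limits the precision, and background can compress differences of dim probe sets.

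Genotypes were compared as KO minus WT in limma 3.58.1 (R 4.3.3; lmFit, eBayes with an intensity trend), two-sided, over the 24898 probe sets with a mean at or above the 30th percentile (log2 3.45), with Benjamini-Hochberg adjustment over all of them. The test was tried on simulated arrays. The members and lists were chosen with earlier results of these data known, so no list was tested and counts stand beside those of the whole table. Further genes were matched through RefSeq GRCm38.p6 by gene identifier.

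Every member may be named. Values per array are given for the 3 members with the smallest p and the 2 with the highest mean signal in each group and for those with an unadjusted p under 0.05 without overlap, and also, chosen after their values were seen, for Postn, Timp2, Col8a1 and Col14a1. The 6 further genes have the smallest p of their list. Alternatives were quantile normalization, median centring, other filters, annotated probe sets only, averaged probe sets, no trend, array weights, age, a replicate block and each array left out. Replicate numbers were not taken as pairs outside the replicate block.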

Additional observations from a re-analysis of the deposited data

How the results depend on the processing

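Over 16 alternatives, the 19 members chosen by rule for values per array gave 303 values, of which 297 kept direction and side of the adjusted threshold. Timp4 passed it with annotated probe sets only (0.58, adjusted p = 0.0231), at an unadjusted p of 0.000185 in place of 0.00161, and the count of members past it was then 1 in place of 0. The cause was not tested. Col1a2 turned to 0.025 after quantile normalization and ranged from -0.073 to 0.032 with an array left out, above 0 without KO replicate 3. Dcn turned to 0.0033 after median centring and ranged from -0.065 to 0.01 with an array left out, at 0.01 without KO replicate 2 and 0.005 without KO replicate 3. The cause of these turns was not tested. The stricter filter removed Timp1, and also Tnc and Lox, whose mean signals were lower.

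Members lower with an unadjusted p under 0.05 numbered 3 as reported, 1 after quantile normalization, 1 without an intensity trend, 5 with annotated probe sets only, and from 1 to 4 with an array left out. Without KO replicate 2, KO replicate 3 or WT replicate 1, that 1 was Ogn. Those higher numbered 2 as reported and 1 to 2 with an array left out. Without KO replicate 3 or WT replicate 2, the 1 was Timp4. After quantile normalization 3 were higher, so lower calls made up 1 of 4 there and 3 of 5 as reported. Over all probe sets tested, lower calls made up 1767 of 3452 after quantile normalization and 2245 of 3417 as reported.

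Over the whole table the 1 probe set past the threshold became 130 after quantile normalization, 105 after median centring, 48 with the stricter filter, 361 with annotated probe sets only, 126 with array weights, 34 with age as a covariate, 0 with the replicate block and 0 to 11 with an array left out. Cavin4 kept its difference, -2.91, with the replicate block at an adjusted p of 0.0754, and measured -3.12 to -2.78 with an array left out. With the replicate block, members with an unadjusted p under 0.05 numbered 2 higher and 4 lower, and genes of the further list 2 higher, in place of 3, and 2 lower. Deviations of same-numbered arrays from their group means correlated at -0.059, 0.021 and -0.057 over the probe sets tested. Arrays of different numbers gave -0.014 to 0.073. With 3 arrays per genotype these values cannot settle whether the arrays were paired. In the further list, unadjusted calls higher ran from 0 to 5 and lower from 1 to 5 over the alternatives.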
